A study of Homo sapiens with 28 samples.

Results

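RNA levels after 24 h of EWS-FLI1 silencing were set directly against those after 24 h of CHD4 silencing in SK-N-MC cells, an established Ewing sarcoma line. The comparison took 9 of the 28 libraries of the series: 3 with the hairpin shFLI1, 3 with shCHD4#1 and 3 with shCHD4#2. A gene was called only where it differed from each CHD4 hairpin in the same direction. Of 21025 genes tested, 7875 did so (37.5% of genes tested), 4071 higher and 3804 lower with shFLI1 (19.4% and 18.1%).

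Every culture, controls included, carried a short hairpin RNA that doxycycline switches on and received 100 ng/ml doxycycline for 24 or 48 h. The hairpin of a group was its only labelled difference: shFLI1 targets the FLI1 part of the fusion gene, the CHD4 hairpins are a pair of separate sequences against 1 gene, and shScramble is the control hairpin. At 24 h there were also 5 shScramble libraries, which entered no test of the main fit and are given as the background. They did enter some of the alternative fits given further below. All groups come from 1 cell line, shFLI1 is a single hairpin, and the labels call the samples biological replicates without naming separate cultures, so a p-value measures only the spread between these samples.

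EWS-FLI1 is the fusion transcription factor of Ewing sarcoma. Its DNA-binding domain comes from FLI1, a member of the ETS family whose sites hold the core GGAA, and repeats of GGAA act as enhancers that the fusion activates. CHD4 is an ATPase that slides nucleosomes, and it is the remodelling subunit of the NuRD complex, which also holds histone deacetylases and is known both for repression of lineage genes and for upkeep of genome integrity.

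The 9 libraries held 46102707 to 62741657 reads, recovered from the deposited values. Replicates 1 and 2 of both CHD4 hairpins and of shScramble form what is called here a first kind of library, a division that the labels do not name and that was drawn from the reads on processed pseudogenes, with 0.337 to 0.375% of reads on processed pseudogenes in the hairpins, while replicate 3 of each hairpin (0.256 to 0.275%) and all shFLI1 libraries (0.243 to 0.283%) were of a second kind. The kind therefore differs in part with the groups, and counts that move with it are given both ways. Fits in second-kind libraries alone also held shScramble replicates 3 to 5, which shared in the estimate of the spread. Mitochondrial ribosomal RNA took 18 to 19.9% of reads with shFLI1 and 15.8 to 17.9% with the hairpins, and the 10 most abundant genes took 23.8 to 25.8% and 20.9 to 23.4%. The part of either in the results was not tested. All 7 Ewing sarcoma markers were present, with a summed level of 17591 to 19297 with shFLI1, 34109 to 44841 with the hairpins and 41453 to 42887 in shScramble. Markers of other cells were present to unequal extents. All 6 fibroblast markers had a mean of at least 10 and a summed level of 4539 to 4667 with shFLI1 against 2085 to 3120 with the hairpins, and 2 of 6 sympathetic neuroblastoma markers did, with 621 to 963 against 244 to 336, chiefly HAND2. The summed level of 6 blood genes found in the table was 346 to 393 with shFLI1 against 83.8 to 149 with the hairpins. Nearly all of it was PTPRC and CD68, while CD3E and LYZ were at 0 in all 3 shFLI1 libraries. Of that pair only PTPRC was higher with shFLI1. CD68 had a mean of 56.5 with shFLI1 against 76.1 with the hairpins and was not called.

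Each targeted gene was lowest in the group whose hairpin targets it, which checks the labels. CHD4 (chromosome 12, 6570082 to 6614524, minus strand, GRCh38) held 13802, 13898 and 16010.5 normalised counts in the shFLI1 libraries, 2747, 2996 and 3226 with shCHD4#1, 2785, 2975 and 3465 with shCHD4#2 and 10099, 10383, 12037, 12352 and 12879 in shScramble. It was 4.81-fold higher with shFLI1 than with the mean of the hairpins (log2 2.27, SE 0.10, adjusted p = 4.08e-07), and the shFLI1 values lay above all 5 controls. In each such bracket the log2 difference is against the mean of both hairpins, with limma's standard error, and the adjusted p is the larger of those against shCHD4#1 and shCHD4#2.

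FLI1 (chromosome 11, 128686535 to 128813267, plus strand), whose reads include those of the fusion, was at 1815, 1733 and 2021 with shFLI1, 3869, 3597 and 3677 with shCHD4#1, 3971, 3332 and 3927 with shCHD4#2 and 4062, 3616, 4054, 4300.2 and 4735 in shScramble (log2 -1.01, SE 0.09, adjusted p = 2.01e-05). All 3 shFLI1 values lay below every other library, and the mean was 0.498 times that of the hairpins. EWSR1, the other fusion partner, held 18345, 17308 and 17364 with shFLI1 and 15374 to 17298 with the hairpins, and it was not called (log2 0.14, SE 0.08, adjusted p = 0.308).

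Against shCHD4#1 alone 5571 genes were higher and 5072 lower (26.5% and 24.1%), and against shCHD4#2 alone 5433 and 4862 (25.8% and 23.1%). The hairpins themselves differed in 1288 genes higher and 949 lower with shCHD4#1 (6.13% and 4.51%). Same-numbered libraries of the hairpins deviated together (correlations 0.41, 0.31 and 0.71). Replicate 1 of one and 2 of the other did so less (0.19 and 0.17), while replicate 3 deviated opposite to both (-0.49 to -0.38). A fit over their 6 libraries with the replicate number as a block, chosen after the data were seen, called 6946 genes. Without the block it called 1245, so the count between hairpins depends on that choice. Replicate 3 is of the second library kind, so the block takes in the kind as well. Against the hairpins in turn, 2690 were called only against shCHD4#1 and 2342 only against shCHD4#2. For 78 genes both differences passed the test with opposite signs. The 3 shFLI1 values lay wholly outside the range of the 6 hairpin values for 7666 of the called genes (36.5% of genes tested). A difference of at least 2-fold against each hairpin was met by 1658 higher and 1583 lower genes (7.89% and 7.53%).

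**Figure D1:**
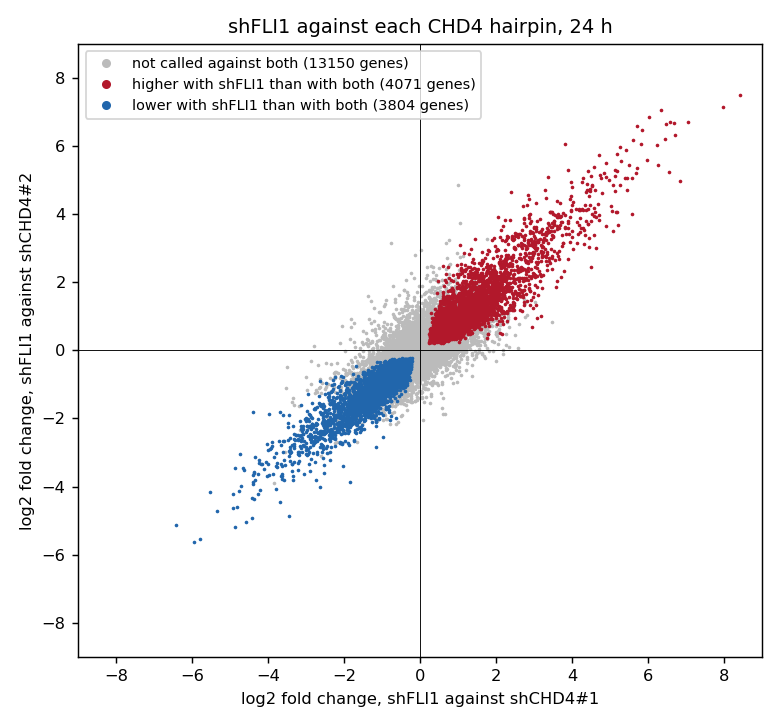
Each point is 1 of 21025 genes, placed by its log2 fold change with shFLI1 against shCHD4#1 (x axis) and against shCHD4#2 (y axis) at 24 h. The 4071 red and 3804 blue genes passed the test against both hairpins in 1 direction, and since both axes use the same 3 shFLI1 libraries the points lie along the diagonal in part by construction.

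The kinds of transcript were not alike. Of all 21025 genes tested 19.4% were higher and 18.1% lower. Of 14343 protein-coding genes 3003 were higher and 2691 lower, with a median log2 difference of 0.04. Transcripts annotated as antisense were more often higher than lower, 385 of 1590 against 141 lower (median 0.31, and 0.31 in second-kind libraries alone). So were long intergenic transcripts, 360 of 1555 against 200 lower (median 0.22, and 0.34). Reads of overlapping genes cannot be told apart for antisense transcripts without a stated strand setting. Processed pseudogenes went the other way, 20 of 686 higher and 180 lower, but their median of log2 -0.65 was -0.22 in second-kind libraries alone. The library kinds were themselves drawn from the reads on processed pseudogenes, so this smaller median follows in part from that division.

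The genes furthest above the CHD4 hairpins were nearly silent in all other groups. COL9A1 (chromosome 6, 70215061 to 70303083, minus strand), a collagen chain of cartilage, held 701, 1045 and 1205 normalised counts with shFLI1 against 0.864 to 6.67 (median 4.80) in the 6 CHD4 hairpin libraries and 3.16 to 8.10 in shScramble (log2 7.56, SE 0.37, adjusted p = 9.38e-07). CDH10 held 905, 1643 and 2382 normalised counts with shFLI1 against 8.67 to 25.1 (median 14) in the 6 CHD4 hairpin libraries and 6.48 to 18.2 in shScramble (log2 6.63, SE 0.37, adjusted p = 1.35e-06). CDH10 encodes a cadherin of nervous tissue, and neither gene's shFLI1 values came near those of any other library. PTN held 149, 305 and 268 normalised counts with shFLI1 against 0 to 4.83 (median 1.54) in the 6 CHD4 hairpin libraries and 2.02 to 8.91 in shScramble (log2 6.52, SE 0.50, adjusted p = 1.04e-05). PTN encodes pleiotrophin, a secreted growth factor of developing nerve and bone.

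For some genes the hairpin libraries held no read or next to none. DKK1 (chromosome 10, 52314296 to 52318042, plus strand), a secreted inhibitor of Wnt signalling, held 101.3, 169 and 60.8 with shFLI1 and 0 in all 6 hairpin libraries. Its 304 reads against 0 make it at least 239-fold higher per unit depth against a floor of 3 reads over the 6 libraries, and the exact binomial 95% interval starts at 193. The intergenic transcript LINC02044 had 366 reads against 1, a ratio of 862 with a 95% exact binomial interval of 154 to 34144, which covers counting error only. AC126178.1, another intergenic transcript, had 990 reads against 0 with shCHD4#1, at least 396-fold against a floor of 3 reads over 3 libraries (interval from 321), and 4 with shCHD4#2. Such genes passed the filter on low values through the shFLI1 libraries, where they had to be high. The antisense transcript AP000842.2 (log2 6.55) and the intergenic AL445623.2 (6.71) completed the 8 leading genes, and reads of overlapping genes cannot be told apart for such transcripts without a stated strand setting.

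At the other end stood genes that, AL021937.3 apart, were almost lost with shFLI1. For those given by library, again apart from AL021937.3, the hairpin values overlapped the control range. HS3ST2 held 2.07, 2.23 and 1.11 normalised counts with shFLI1 against 90.3 to 280.1 (median 158) in the 6 CHD4 hairpin libraries and 160.3 to 423 in shScramble (log2 -5.79, SE 0.37, adjusted p = 3.20e-06). HS3ST2 encodes a sulfotransferase of heparan sulfate. SHISA9 held 2.07, 3.35 and 2.21 normalised counts with shFLI1 against 116 to 294 (median 168) in the 6 CHD4 hairpin libraries and 159 to 286 in shScramble (log2 -5.67, SE 0.27, adjusted p = 8.08e-07). SHISA9, a protein that associates with AMPA glutamate receptors, had no shFLI1 value above 3.35. SYT4 held 3.10, 1.12 and 3.32 normalised counts with shFLI1 against 71.6 to 137 (median 128) in the 6 CHD4 hairpin libraries and 42.1 to 167 in shScramble (log2 -5.03, SE 0.28, adjusted p = 2.03e-06). SYT4 encodes a synaptotagmin of secretory vesicles, and again the groups were far apart.

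ADGRA1 held 117, 53.6 and 39.8 normalised counts with shFLI1 against 1313 to 2077 (median 1719) in the 6 CHD4 hairpin libraries and 1579.6 to 2727 in shScramble (log2 -4.72, SE 0.28, adjusted p = 2.15e-06). ADGRA1 is an adhesion G protein-coupled receptor. MROH2A held 24.8, 31.3 and 42.0 normalised counts with shFLI1 against 448 to 2103 (median 1026) in the 6 CHD4 hairpin libraries and 966 to 2864 in shScramble (log2 -4.85, SE 0.29, adjusted p = 4.91e-06). For MROH2A, a gene of HEAT repeats, the hairpins differed from each other, with 2103, 1621 and 1056 for shCHD4#1 and 996, 448 and 460.3 for shCHD4#2 (log2 1.38, adjusted p = 0.0258, and over the 6 hairpin libraries 0.0609 without the replicate block and 4.61e-04 with it), yet all 6 values were more than 10 times the highest shFLI1 value. The antisense transcript AL844908.1 had a log2 difference of -4.78. AL021937.3 held 1.03, 2.23 and 2.21 normalised counts with shFLI1 against 38.7 to 188 (median 89.1) in the 6 CHD4 hairpin libraries and 1.01 to 16.7 in shScramble (log2 -5.03, SE 0.50, adjusted p = 6.21e-05). For AL021937.3, also antisense, it was the hairpin values that lay far from the controls, above all 5 of them, while the shFLI1 values lay within the control range.

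**Figure D2:**
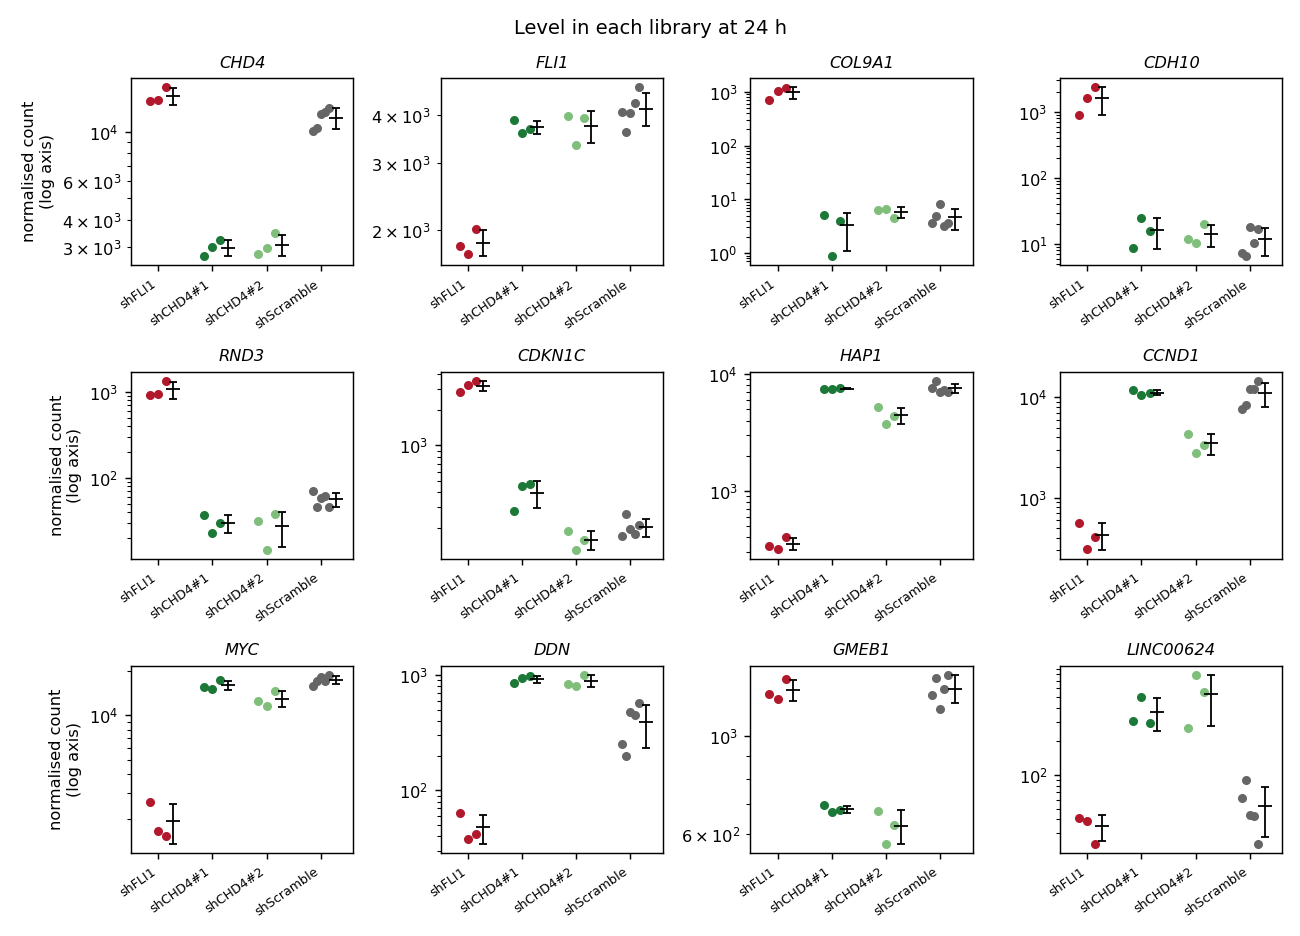
Normalised counts of 12 genes in each 24 h library on a log axis, by group, with the mean and SD beside the points (3 libraries a knockdown, 5 shScramble). CHD4 and FLI1 are the targets. COL9A1, CDH10, RND3 and CDKN1C were highest with shFLI1, HAP1, CCND1, MYC and DDN lowest, and for GMEB1 and LINC00624 it is the CHD4 hairpins that stand apart from the controls.

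A difference between knockdowns can sit on either side of the control, so the shScramble mean was placed on the log2 scale between the CHD4 hairpins (0) and shFLI1 (1) for each called gene. The median position was 0.10 (quartiles -0.07 and 0.31), but 0.0279 in second-kind libraries alone and 0.171 with shScramble replicate 2 as the only control. Of the 7875 called genes, 35.2% had the control beyond the hairpins (below 0), 34.1% lay from 0 to 0.25 and 26.2% from 0.25 to 0.75. Only 3.23% lay from 0.75 to 1 and 1.35% beyond shFLI1, so for most called genes the control was nearer to the CHD4 hairpins. The median was 0.13 for genes higher with shFLI1 and 0.07 for lower ones, and 0.08 for those at least 2-fold apart.

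**Figure D3:**
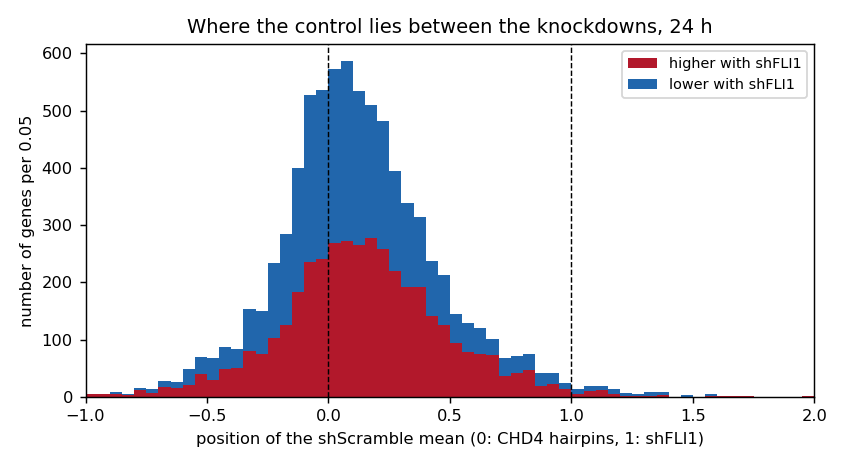
Number of called genes (y axis) by the position of the shScramble mean between the CHD4 hairpins (0, dashed) and shFLI1 (1, dashed), in steps of 0.05, with 25 genes outside the plotted range. The peak lies near 0, with a median of 0.10, and few genes lie near 1.

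Of the 4071 genes called higher and 3804 called lower, 55 and 30 met the rule for naming with all shFLI1 values within the control range and all hairpin values outside it. That rule also asks for a gene symbol, no overlap between the knockdowns and a mean of at least 100 in the higher group. GMEB1 held 1245, 1214 and 1349.9 normalised counts with shFLI1 against 569 to 696 (median 675) in the 6 CHD4 hairpin libraries and 1152 to 1379.6 in shScramble (log2 0.96, SE 0.09, adjusted p = 5.04e-05). GMEB1, a DNA-binding modulator of glucocorticoid-regulated genes, was thus lower with every CHD4 hairpin library than in any control. LRFN3 held 359, 333 and 363 normalised counts with shFLI1 against 161 to 215 (median 211) in the 6 CHD4 hairpin libraries and 223 to 382 in shScramble (log2 0.84, SE 0.14, adjusted p = 0.00158). LRFN3 encodes a synaptic adhesion protein. HSD17B2, which oxidises steroid hormones, held 227, 208 and 245 with shFLI1, 48.6 to 107 with the hairpins and 134 to 262 in shScramble (log2 1.45, SE 0.24, adjusted p = 0.00225). The non-coding genes AC092620.1 (log2 1.33), AC104596.1 (1.00) and AC012146.1 (1.04) were the other 3 named on the higher side, and AC104596.1 was not called in second-kind libraries alone (larger adjusted p = 0.0681).

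Among genes on the CHD4 side in the other direction, LINC00624 held 41.4, 39.1 and 24.3 normalised counts with shFLI1 against 263 to 784 (median 405) in the 6 CHD4 hairpin libraries and 24.1 to 89.9 in shScramble (log2 -3.58, SE 0.32, adjusted p = 3.93e-05). LINC00624 is annotated as antisense, and its hairpin values varied by more than 2-fold within a group. ARHGAP9 held 64.1, 58.1 and 59.7 normalised counts with shFLI1 against 113 to 224 (median 157) in the 6 CHD4 hairpin libraries and 48.2 to 81.8 in shScramble (log2 -1.37, SE 0.22, adjusted p = 0.00137). ARHGAP9 encodes a GTPase-activating protein of small GTPases, and its shFLI1 values were those of the control. KREMEN2 held 64.1, 53.6 and 53.1 normalised counts with shFLI1 against 111 to 183 (median 156) in the 6 CHD4 hairpin libraries and 38.9 to 107 in shScramble (log2 -1.35, SE 0.16, adjusted p = 4.88e-04). KREMEN2 is a receptor of DKK proteins, which block Wnt signalling. The periplakin gene PPL, a cytolinker of junctions, had the same order of levels, at 28.9, 17.9 and 16.6 with shFLI1, 78.1 to 236 with the hairpins and 10.5 to 25.3 in shScramble (log2 -2.67, SE 0.31, adjusted p = 2.83e-04). The intergenic AL035446.2 (log2 -2.23) and LINC01234 (-1.48) were on the same side.

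A further 148 of the 4071 genes called higher and 72 of the 3804 called lower met the same rule in another way. They had all shFLI1 values on one side of the control range and all hairpin values on the other. RND3 held 929, 941 and 1353 normalised counts with shFLI1 against 14.3 to 37.4 (median 30.6) in the 6 CHD4 hairpin libraries and 45.4 to 70.4 in shScramble (log2 5.22, SE 0.29, adjusted p = 1.42e-06). RND3 is a small GTPase family protein that loosens actin stress fibres. FRMD6 held 3702, 3893 and 3329.9 normalised counts with shFLI1 against 498 to 912 (median 710.2) in the 6 CHD4 hairpin libraries and 1053 to 1452 in shScramble (log2 2.37, SE 0.15, adjusted p = 3.92e-06). FRMD6, also called Willin, acts upstream of the Hippo pathway. MARVELD3, a tight junction protein gene, was at 661, 633 and 651 against 73.3 to 204 with the hairpins (log2 2.32, SE 0.21, adjusted p = 5.84e-05).

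Among lower genes of this opposite pattern, DDN held 63.1, 38.0 and 42.0 normalised counts with shFLI1 against 811 to 1011 (median 893) in the 6 CHD4 hairpin libraries and 200.1 to 578 in shScramble (log2 -4.25, SE 0.16, adjusted p = 2.85e-07). DDN encodes dendrin, a protein of dendrites and podocytes. LAMC3 held 37.2, 38.0 and 53.1 normalised counts with shFLI1 against 242 to 368 (median 347) in the 6 CHD4 hairpin libraries and 150.5 to 198 in shScramble (log2 -2.92, SE 0.17, adjusted p = 2.37e-06). LAMC3 is a laminin chain of basement membranes, and its 3 groups did not overlap. PTCHD1 (log2 -3.70), SH2D5 (-3.40), FAM78B (-2.87) and POTEF (-3.15), which has near-identical copies and is uncertain, were the others, and the intergenic MEG8 (log2 4.90) was the non-coding gene on the higher side.

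Genes that EWS-FLI1 is known to activate were lower with shFLI1 than with CHD4 loss. Of 50 activated targets, all of them tested, 31 were lower and 5 higher, or 62% and 10% beside 18.1% and 19.4% of all genes. The list's median log2 difference was -0.89 beside 0.02 for all genes. The same list had a median of -1.22 from shScramble to shFLI1 and of -0.18 from shScramble to the hairpins. The list holds known targets of this fusion and was chosen with earlier results of these libraries known, so its direction is not independent evidence.

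HAP1 held 338, 317 and 398 normalised counts with shFLI1 against 3771 to 7588 (median 6308) in the 6 CHD4 hairpin libraries and 6999 to 8781 in shScramble (log2 -4.04, SE 0.11, adjusted p = 1.04e-07). HAP1 encodes a huntingtin-associated trafficking protein, and each hairpin's values were over 9 times those of shFLI1. NR0B1 held 187, 184 and 106 normalised counts with shFLI1 against 716 to 1797 (median 1362) in the 6 CHD4 hairpin libraries and 985 to 1588 in shScramble (log2 -3.00, SE 0.19, adjusted p = 7.82e-06). NR0B1, or DAX1, is an orphan nuclear receptor whose promoter repeat the fusion is known to bind. TERT held 27.9, 29 and 22.1 normalised counts with shFLI1 against 244 to 415 (median 372) in the 6 CHD4 hairpin libraries and 168 to 265 in shScramble (log2 -3.70, SE 0.18, adjusted p = 7.81e-07). TERT is the catalytic subunit of telomerase, and its shFLI1 values lay below all others while the hairpin range reached above that of the control.

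UGT3A2 held 2286, 1602 and 1749 normalised counts with shFLI1 against 9688 to 14815 (median 12725) in the 6 CHD4 hairpin libraries and 14035 to 16577 in shScramble (log2 -2.73, SE 0.11, adjusted p = 4.96e-07). UGT3A2 is a glycosyltransferase gene. STEAP1 held 481, 399.8 and 442 normalised counts with shFLI1 against 1573 to 2451 (median 1903) in the 6 CHD4 hairpin libraries and 2255 to 3444 in shScramble (log2 -2.13, SE 0.14, adjusted p = 3.85e-06). STEAP1 is a metalloreductase of the cell surface, and BCL11B, a zinc finger factor of T cells and neurons, was at 2115, 2059 and 1776 against 5711 to 10030.5 with the hairpins (log2 -1.90, SE 0.14, adjusted p = 1.23e-05). The 5 higher members were PHLDA1 (log2 3.13), a gene of the growth factor response, the metabolic enzyme gene GSTM4 (0.37), and AURKA (0.54), FOXM1 (0.59) and DLGAP5 (0.73), which are also on the mitosis list. In second-kind libraries alone 29 members were lower and 1 was higher. Without shFLI1 replicate 1 or shCHD4#2 replicate 1 the number higher was 3.

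Genes held down by the fusion showed the reverse. Of 34 tested of 35 repressed targets, 20 were higher and 1 lower, HBEGF (log2 -0.93), with a median of 1.02. Those shares were 58.8% and 2.94% beside 19.4% and 18.1% of all genes. IL1B held 279, 240.1 and 321 normalised counts with shFLI1 against 4.76 to 10.4 (median 8.89) in the 6 CHD4 hairpin libraries and 8.91 to 22.3 in shScramble (log2 4.93, SE 0.23, adjusted p = 7.64e-07). IL1B is the inflammatory cytokine interleukin 1 beta. CDKN1C held 2849, 3270.0 and 3488 normalised counts with shFLI1 against 130.5 to 468 (median 235) in the 6 CHD4 hairpin libraries and 172 to 262 in shScramble (log2 3.68, SE 0.18, adjusted p = 1.63e-06). CDKN1C encodes p57, an inhibitor of cyclin-dependent kinases, and shCHD4#1 (280.1, 450.3 and 468) stood above shCHD4#2 (189, 130.5 and 157; log2 1.30, adjusted p = 0.00376). Chosen after their values were seen, the transcription factor SNAI2 (log2 3.67) and IGFBP5 (3.56), which binds insulin-like growth factors, were the next largest. Without shCHD4#2 replicate 3 there were 2 lower members.

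MYC and most listed genes of ribosome assembly were lower with shFLI1. For those given by library the hairpin values overlapped those of the control. MYC held 2615, 1663 and 1542 normalised counts with shFLI1 against 11512 to 17251 (median 14848) in the 6 CHD4 hairpin libraries and 15662 to 18821 in shScramble (log2 -2.92, SE 0.15, adjusted p = 1.36e-06). MYC is a transcription factor that drives ribosome production and growth. Of 30 ribosome biogenesis genes, all tested, 26 were lower and 0 higher (18.1% of all genes tested were lower), with a median log2 difference of -1.38. The list median was -1.62 to -1.18 from the control mean in the shFLI1 libraries, -0.23 to -0.07 with shCHD4#1 and -0.04 to 0.16 with shCHD4#2, so no library of one knockdown reached those of the other. In second-kind libraries alone the count was again 26.

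HEATR1 held 6104, 4905 and 5126 normalised counts with shFLI1 against 16929 to 19206 (median 17865) in the 6 CHD4 hairpin libraries and 15609.9 to 20583 in shScramble (log2 -1.74, SE 0.09, adjusted p = 8.38e-07). HEATR1 is a factor of ribosomal RNA synthesis and of the small subunit processome. RRS1 held 205, 156 and 160.3 normalised counts with shFLI1 against 917 to 1571 (median 1171) in the 6 CHD4 hairpin libraries and 647 to 1551 in shScramble (log2 -2.74, SE 0.14, adjusted p = 1.12e-06). RRS1 takes part in assembly of the large subunit. DKC1 held 2874, 2254 and 2481 normalised counts with shFLI1 against 8024 to 11092 (median 9113) in the 6 CHD4 hairpin libraries and 7242 to 13138 in shScramble (log2 -1.86, SE 0.09, adjusted p = 1.06e-06). DKC1, dyskerin, is the pseudouridine synthase of box H/ACA particles, and in all 3 genes the knockdowns did not overlap. FBL, NCL, PES1 and NPM1 were the 4 members not called, at log2 -0.31, -0.11, -0.69 and 0.44. For NCL and NPM1 both knockdowns had means below the control. NCL had 27193 with shFLI1, 33192 with the hairpins and 63332 in shScramble, and NPM1 58470, 51137 and 98144.5. The hairpins differed in sign, with log2 -0.79 and -0.42 against shCHD4#1 and 0.56 and 1.30 against shCHD4#2.

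The promoters of these genes were searched for the E-box CACGTG, a site that MYC and related factors bind, a motif chosen after the values were seen. RefSeq windows of GRCh38.p14 from 250 bases before to 50 after the start were found for 25 members, of which 10 (40%) held the motif, and 8 of the 21 called lower (38.1%). It occurred in 9.91% of 12147 tested genes with a window, in 13.9% of those called lower and 7.22% of those called higher. The 2 called members with the motif and the smallest adjusted p are shown with the E-box in capitals, as examples of where the site lies relative to the start. UTP20 is at chr12:101279855-101280154, plus strand, and MRTO4 at chr1:19251555-19251854, plus strand.
UTP20: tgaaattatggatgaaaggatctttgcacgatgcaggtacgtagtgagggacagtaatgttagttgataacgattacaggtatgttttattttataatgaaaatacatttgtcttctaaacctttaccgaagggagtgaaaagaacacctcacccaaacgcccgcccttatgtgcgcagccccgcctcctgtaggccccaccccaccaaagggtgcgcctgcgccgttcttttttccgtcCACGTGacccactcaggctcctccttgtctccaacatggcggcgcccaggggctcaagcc
MRTO4: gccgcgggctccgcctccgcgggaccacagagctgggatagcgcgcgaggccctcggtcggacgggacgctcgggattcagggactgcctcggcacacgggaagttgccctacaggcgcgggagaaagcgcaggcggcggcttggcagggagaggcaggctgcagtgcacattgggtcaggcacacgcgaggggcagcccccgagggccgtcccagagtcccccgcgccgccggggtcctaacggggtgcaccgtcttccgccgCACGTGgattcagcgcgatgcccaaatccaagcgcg
UTP20 held 3622, 2989.7 and 2911 normalised counts with shFLI1 against 7864 to 10243 (median 9345) in the 6 CHD4 hairpin libraries and 6607 to 10119.5 in shScramble (log2 -1.52, SE 0.09, adjusted p = 3.28e-06). MRTO4 held 2273, 1731 and 1546 normalised counts with shFLI1 against 5459 to 7270.4 (median 5884) in the 6 CHD4 hairpin libraries and 4774 to 9113 in shScramble (log2 -1.74, SE 0.13, adjusted p = 7.99e-06). UTP20 is a scaffold of the small subunit processome and MRTO4 a factor of the large subunit. A match is a description of the letters and not a bound site.

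**Figure D4:**
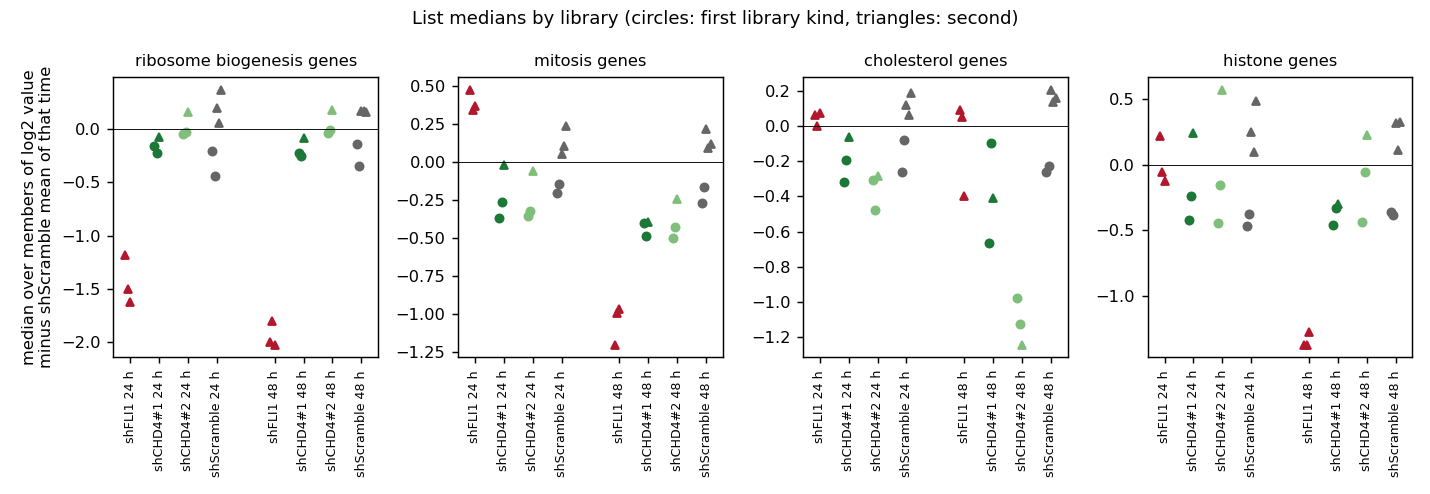
Median over the tested members of a list of the log2 value minus the shScramble mean of the same time, for each library at 24 and 48 h, with circles for libraries of the first kind and triangles for the second. Ribosome biogenesis genes lie at -1.62 to -1.18 with shFLI1 at 24 h and lower at 48 h. Mitosis genes lie above the controls at 24 h and below them at 48 h with shFLI1, and within a group first-kind libraries lie lower.

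Among genes that set the G1 phase, cyclins D1 and D2 were lower and 5 inhibitors of cyclin-dependent kinases higher with shFLI1. Of 21 tested of 22 G1 cyclins, kinases, inhibitors and RB family members, 10 were higher and 3 lower. Those shares were 47.6% and 14.3% beside 19.4% and 18.1% of all genes. CCND1 held 565, 312 and 406 normalised counts with shFLI1 against 2775 to 11799 (median 7477) in the 6 CHD4 hairpin libraries and 7626 to 14626 in shScramble (log2 -3.89, SE 0.18, adjusted p = 1.72e-06). CCND1 encodes cyclin D1, and the hairpins differed from each other, 11799, 10615 and 10924 with shCHD4#1 against 4339.6, 2775 and 3335 with shCHD4#2 (log2 1.7, adjusted p = 0.00108), the lowest of them still over 4 times the highest shFLI1 value. CCND2 held 174, 131 and 222 normalised counts with shFLI1 against 922 to 1187 (median 1033) in the 6 CHD4 hairpin libraries and 851 to 1249 in shScramble (log2 -2.58, SE 0.16, adjusted p = 2.31e-06). CCND2, cyclin D2, showed no such split between hairpins. CDKN1A held 354, 325 and 224 normalised counts with shFLI1 against 12.1 to 43.7 (median 34.0) in the 6 CHD4 hairpin libraries and 21.1 to 38.5 in shScramble (log2 3.28, SE 0.33, adjusted p = 8.89e-05). CDKN1A encodes p21, an inhibitor of cyclin-dependent kinases. The other inhibitors called higher were CDKN1B (log2 1.35), CDKN2C (1.48) and CDKN2A (0.65), with the RB family genes RB1 (0.48) and RBL2 (0.47). Cyclin D3, CCND3 (log2 0.37), and the inhibitor CDKN2D (-0.01) were not called. In second-kind libraries alone 6 members were higher.

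Mitosis genes were nevertheless higher with shFLI1 than with CHD4 loss at this time. All 38 listed genes were tested, of which 31 were higher and 0 lower, at a median log2 difference of 0.64. The share higher was 81.6% beside 19.4% of all genes. NEK2 held 3385, 3008 and 3117 normalised counts with shFLI1 against 1327 to 1756 (median 1509) in the 6 CHD4 hairpin libraries and 1409 to 2119 in shScramble (log2 1.04, SE 0.10, adjusted p = 4.07e-05). NEK2 is a kinase that parts the centrosomes. NDC80 held 3289, 3003 and 3214 normalised counts with shFLI1 against 1321 to 1881 (median 1563) in the 6 CHD4 hairpin libraries and 1721 to 2152 in shScramble (log2 1.01, SE 0.11, adjusted p = 1.12e-04). NDC80 links kinetochores to microtubules. PTTG1 held 4348, 4177 and 3632 normalised counts with shFLI1 against 1719 to 2169 (median 2076) in the 6 CHD4 hairpin libraries and 2468 to 2692 in shScramble (log2 1.01, SE 0.09, adjusted p = 3.50e-05). PTTG1 is securin, the inhibitor of separase, and all 3 genes had no overlap between the knockdowns.

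The size of that difference moves with the library kind. The median of the mitosis list was 0.34 to 0.47 from the control mean in the shFLI1 libraries, -0.37 to -0.27 in replicates 1 and 2 of the hairpins and -0.06 to -0.02 in their replicate 3. Second-kind controls lay at 0.05 to 0.24 and first-kind controls at -0.21 to -0.15. Against replicate 3 alone the list's median log2 difference was 0.40. The fit in second-kind libraries alone has 1 library for each hairpin. Each is assumed there to vary as the shFLI1 and second-kind shScramble libraries do. With library kind as a term 22 members were higher and 0 lower, and 26 and 1 when shScramble was added to that fit.

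Replication genes were less uniform. Of 40 DNA replication and E2F target genes, all tested, 9 were higher and 2 lower, or 22.5% and 5%. Of all genes 19.4% were higher and 18.1% lower, so the share higher was near that of all genes. The S-phase cyclin CCNE2 held 4171, 4139 and 3843 against 1560.0 to 2486 with the hairpins and 1858 to 3495 in shScramble (log2 1.14, SE 0.13, adjusted p = 1.81e-04). TK1, thymidine kinase, held 3889, 3645 and 2929.7 against 1423 to 2318 with the hairpins (log2 1.00, SE 0.13, adjusted p = 8.13e-04). RFC3, of the clamp loader, was lower, at 4808, 4163 and 3633 against 6478 to 8878 with the hairpins (log2 -0.80, SE 0.11, adjusted p = 8.60e-04). The number higher was 5 without shFLI1 replicate 1 and 3 in second-kind libraries alone. The number lower was 1 without any 1 of the 3 shFLI1 libraries, shCHD4#2 replicate 1 or shCHD4#2 replicate 3, and 5 with library kind as a term.

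Replication-dependent histone genes gave no call in the limma fit, 0 of 34 tested of 36 in either direction, but 10 were lower with library kind as a term and 16 when shScramble was added to that fit. DESeq2 on recovered reads called 1 lower and edgeR 0. In second-kind libraries alone 1 was lower, and each count was at most 1 when a single library was left out. At an unadjusted p below 0.05 against both hairpins, 0 were higher and 1 lower in the limma fit. The libraries were made from total RNA, and the part of the library kind in these counts was not tested.

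Of 35 DNA repair genes, all tested, 3 were higher and 7 lower, or 8.57% and 20%, the latter near the 18.1% of all genes, with a median of 0.02. ATR held 4958, 4923 and 5112 normalised counts with shFLI1 against 9229 to 11027 (median 9679) in the 6 CHD4 hairpin libraries and 8185 to 9447 in shScramble (log2 -0.98, SE 0.07, adjusted p = 1.01e-05). ATR is the kinase that answers stalled replication forks. PALB2 held 1352, 1297 and 1255 normalised counts with shFLI1 against 2137 to 2437 (median 2271) in the 6 CHD4 hairpin libraries and 1946 to 2391 in shScramble (log2 -0.81, SE 0.08, adjusted p = 3.43e-05). PALB2 joins BRCA1 and BRCA2 at breaks, and both genes lay apart from all 6 hairpin values. TP53BP1, which steers repair towards end joining, was higher at 8336, 8873 and 9592 against 5773 to 6789.8 with the hairpins (log2 0.52, SE 0.08, adjusted p = 0.00127). NBN (log2 -0.43), RAD50 (-0.45) and MRE11 (-0.33), the 3 members of the MRN complex, were all called lower. With library kind as a term 11 were lower, and without shCHD4#2 replicate 3 there were 7 higher.

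The ATR window held the ETS core CCGGAAG 2 times, on either strand, which no other named gene but PFKP did. It is shown with that core in capitals because the factor silenced here is an ETS protein, at chr3:142578684-142578983, minus strand of GRCh38.p14 (RefSeq).
ATR: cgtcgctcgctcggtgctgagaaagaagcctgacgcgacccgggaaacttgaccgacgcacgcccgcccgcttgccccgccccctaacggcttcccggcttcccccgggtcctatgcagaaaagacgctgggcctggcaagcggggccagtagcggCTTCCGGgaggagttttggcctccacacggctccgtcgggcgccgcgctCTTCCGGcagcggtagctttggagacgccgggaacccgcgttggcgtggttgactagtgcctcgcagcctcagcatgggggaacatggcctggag
Over all 12147 tested genes with a window 17.6% held this core, 19.5% of those called lower and 13.3% of those called higher. Among genes at least 2-fold apart the shares were 11.9% of 680 lower and 6.0% of 934 higher, so neither reached that of all tested genes. A tandem GGAAGGAA, on either strand, was in 3.28% of tested genes, 2.97% of lower and 3.78% of higher ones. The windows cover only the start site and not the distal repeats that the fusion binds.

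Of 31 tested of 32 mesenchymal and extracellular matrix genes, 15 were higher with shFLI1 and 4 lower, or 48.4% and 12.9% beside 19.4% and 18.1% of all genes, with a median of 0.48. COL3A1 held 44356, 49545 and 47845 normalised counts with shFLI1 against 8937 to 11988 (median 10249) in the 6 CHD4 hairpin libraries and 11324 to 15180.5 in shScramble (log2 2.20, SE 0.10, adjusted p = 5.18e-07). COL3A1 is the collagen of pliable tissue. COL5A2 held 20041, 23711 and 24262 normalised counts with shFLI1 against 4540.0 to 7117 (median 5982) in the 6 CHD4 hairpin libraries and 5375 to 7691 in shScramble (log2 1.97, SE 0.09, adjusted p = 1.14e-06). COL5A2 is a chain of the collagen that starts fibrils, and both were over 2-fold above every hairpin library. The 4 lower members were COL1A1 (log2 -0.88), COL6A3 (-1.26), TIMP3 (-0.93), an inhibitor of metalloproteases, and the cadherin CDH11 (-1.85), so COL1A1 and COL1A2 (3.21), which form 1 collagen, differed in opposite directions.

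Fibroblast markers moved with the matrix list, which holds 4 of the 6. Their summed level was 1946 to 2904 in shScramble, below the shFLI1 range given above, and 4 of 6 were higher and 1 lower. PDGFRB held 3317, 3258 and 3551 normalised counts with shFLI1 against 933 to 1457 (median 1196) in the 6 CHD4 hairpin libraries and 565 to 1181 in shScramble (log2 1.51, SE 0.12, adjusted p = 1.76e-05). PDGFRB is a receptor of platelet-derived growth factor and had the highest level of the 6 with shFLI1. LUM, lumican, held 74.4, 79.3 and 65.2 against 1.61 to 13.9 with the hairpins (log2 3.32, SE 0.43, adjusted p = 5.50e-04). DCN, decorin, held 34.1, 65.9 and 26.5 against 0 to 2.60 with the hairpins. DCN had 116 reads with shFLI1 and 3 with shCHD4#1, a ratio of 46.4 with a 95% interval of 15.5 to 228. The share of other cells in the cultures was not tested, and fewer cells of a type cannot be told apart from less RNA per cell in bulk RNA.

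HOX genes, which pattern the body axis, were higher in 17 of 33 tested of 39 and lower in 0, with a median of 0.79. The share higher was 51.5% beside 19.4% of all genes. HOXC4 held 1324, 1331 and 1424 normalised counts with shFLI1 against 327 to 502 (median 361) in the 6 CHD4 hairpin libraries and 273 to 556 in shScramble (log2 1.85, SE 0.13, adjusted p = 7.83e-06). HOXA13 held 353, 581 and 624 normalised counts with shFLI1 against 33.3 to 89.3 (median 57.2) in the 6 CHD4 hairpin libraries and 63.2 to 98.2 in shScramble (log2 3.14, SE 0.30, adjusted p = 4.84e-05). HOXB3 held 1969, 2346 and 2495 normalised counts with shFLI1 against 716 to 1166 (median 962) in the 6 CHD4 hairpin libraries and 881 to 1698 in shScramble (log2 1.27, SE 0.10, adjusted p = 5.18e-05). The called genes came from all 4 clusters: HOXA3, HOXA5, HOXA6 and HOXA13 of cluster A, 5 of cluster B, 6 of cluster C, and HOXD3 and HOXD12 of cluster D. The list medians from shScramble were 0.73 for shFLI1 and -0.18 for the hairpins. Neighbouring HOX genes can overlap, so their reads may not be independent. Their shFLI1 values lay above those of every hairpin and control library for all 3 genes printed.

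Interferon response and antigen presentation genes were higher in 14 of 28 tested of 35 and lower in 1, with a median of 0.59. Those shares were 50% and 3.57% beside 19.4% and 18.1% of all genes. IFIT2 held 433, 431 and 427 normalised counts with shFLI1 against 92.5 to 116 (median 96.7) in the 6 CHD4 hairpin libraries and 59.2 to 160.1 in shScramble (log2 2.1, SE 0.12, adjusted p = 2.33e-06). IFIT3 held 731, 633 and 579 normalised counts with shFLI1 against 178 to 233 (median 213) in the 6 CHD4 hairpin libraries and 188 to 285 in shScramble (log2 1.61, SE 0.12, adjusted p = 1.05e-05). IFIT proteins bind viral RNA and block its translation, and for both genes the hairpin values lay close to the controls. IFI44 held 4909, 5709 and 5740.0 normalised counts with shFLI1 against 1490.5 to 2333 (median 1943) in the 6 CHD4 hairpin libraries and 2479 to 3865 in shScramble (log2 1.5, SE 0.10, adjusted p = 8.65e-06). IFI44 is an interferon-induced protein gene whose 6 hairpin values all lay below the control range. The genes of antigen transport split, TAP1 being higher (log2 0.92) and its partner TAP2 the 1 lower member (-1.55).

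Of 29 tested of 30 glycolysis and hypoxia genes 6 were higher and 7 lower, or 20.7% and 24.1% beside 19.4% and 18.1% of all genes, with a median of -4.08e-03. HK2 held 901, 661 and 605 normalised counts with shFLI1 against 4108 to 4951 (median 4580.0) in the 6 CHD4 hairpin libraries and 2842 to 4653 in shScramble (log2 -2.69, SE 0.12, adjusted p = 4.33e-07). HK2 is the hexokinase bound to mitochondria in growing cells, and its paralog HK1 was higher (log2 1.5). This pair and the next 2 were picked out after their values were seen, and no test of pairs was made. The glucose transporter SLC2A1 was lower (-0.84) and SLC2A3 higher (1.33). Among the regulators of phosphofructokinase, PFKFB3 was lower (-0.63) and PFKFB4 higher (1.25). PFKP held 3106, 2369.9 and 2483 normalised counts with shFLI1 against 5547 to 7151 (median 5953) in the 6 CHD4 hairpin libraries and 4869 to 6822 in shScramble (log2 -1.20, SE 0.10, adjusted p = 2.89e-05). PFKP is the platelet isoform of phosphofructokinase. The peptide hormone gene ADM was the furthest above, at 1861, 1519 and 2513 against 202 to 409 with the hairpins (log2 2.85, SE 0.25, adjusted p = 2.06e-05).

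Cholesterol synthesis and uptake genes were higher in 11 of 25 (44% beside 19.4% of all genes) and lower in 0. All were tested, and their median was 0.36. Their medians from shScramble were 0.00 for shFLI1 and -0.28 for the hairpins. STARD4 held 1436, 1475 and 1674 normalised counts with shFLI1 against 357 to 689 (median 422) in the 6 CHD4 hairpin libraries and 400.3 to 728 in shScramble (log2 1.68, SE 0.14, adjusted p = 6.29e-05). STARD4 carries sterols between membranes. SREBF2 held 10029, 9942 and 10245 normalised counts with shFLI1 against 5207 to 6956 (median 6281) in the 6 CHD4 hairpin libraries and 6998 to 9582 in shScramble (log2 0.72, SE 0.08, adjusted p = 3.66e-04). SREBF2 is the factor that turns on the pathway. FDFT1, squalene synthase, held 6955, 6748 and 6544 against 3328 to 4531 with the hairpins (log2 0.75, SE 0.10, adjusted p = 5.60e-04). First-kind hairpin libraries were lower than second-kind ones with shCHD4#1, and in second-kind libraries alone 7 members were higher.

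Of 25 tested of 26 p53 target genes 5 were higher and 7 lower, or 20% and 28%, the former near the 19.4% of all genes. AEN held 1258, 732 and 597 normalised counts with shFLI1 against 3594 to 5362 (median 4536) in the 6 CHD4 hairpin libraries and 3598 to 6437 in shScramble (log2 -2.43, SE 0.19, adjusted p = 1.62e-05). AEN is an exonuclease of apoptosis. DDB2 held 1119.7, 1027 and 1008 normalised counts with shFLI1 against 411 to 626 (median 457) in the 6 CHD4 hairpin libraries and 501 to 757 in shScramble (log2 1.14, SE 0.11, adjusted p = 9.36e-05). DDB2 recognises ultraviolet damage. Other members called lower included PMAIP1 (log2 -1.04), TIGAR (-1.01) and FAS (-0.78). The number higher was 3 without shFLI1 replicate 1 or 3 or shCHD4#2 replicate 1, and 3 in second-kind libraries alone.

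Of 27 ATF4 and unfolded protein response genes, all tested, 5 were higher and 6 lower, or 18.5% and 22.2%, shares near those of all genes. STC2 held 157, 107 and 136 normalised counts with shFLI1 against 592 to 757 (median 618) in the 6 CHD4 hairpin libraries and 227 to 553 in shScramble (log2 -2.26, SE 0.13, adjusted p = 2.20e-06). STC2 is a secreted glycoprotein induced by stress, and its hairpin values lay above the control range and its shFLI1 values below it. SLC7A5 held 4721, 3502 and 3928 normalised counts with shFLI1 against 6988 to 10399 (median 7992) in the 6 CHD4 hairpin libraries and 6501 to 10908 in shScramble (log2 -1.06, SE 0.14, adjusted p = 3.81e-04). SLC7A5 imports large neutral amino acids, and with its partner chain SLC3A2 (log2 -0.49) and the serine enzyme PSAT1 (-0.74) it was among the lower members. CEBPB was also lower (log2 -1.40), whereas the chaperone HSPA5 was at 0.01 and not called. The number higher was 2 without shCHD4#1 replicate 1 and 3 without its replicate 2 or shFLI1 replicate 1 or 3.

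Immediate early and AP-1 genes, which answer growth signals, were higher in 4 and lower in 4 of 29 tested of 34. Either share was 13.8%, below the 19.4% higher and 18.1% lower of all genes. Lower with MYC were FOS (log2 -1.11), EGR2 (-2.11) and SPRY2 (-1.0), and higher were DUSP6 (2.04), ATF3 (0.82), JUND and SPRED2. JUND held 2479, 1939.9 and 2001 against 888 to 1407 with the hairpins (log2 0.94, SE 0.14, adjusted p = 0.00134). SPRED2 held 418, 385 and 410.2 normalised counts with shFLI1 against 158 to 258 (median 206) in the 6 CHD4 hairpin libraries and 266 to 369 in shScramble (log2 1.03, SE 0.16, adjusted p = 0.00157). SPRED2 restrains RAS signalling. Without shFLI1 replicate 1 or 2 or shCHD4#2 replicate 1 the number lower was 2.

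Among the other NuRD subunits differences were small beside that of CHD4. Of 15 subunits 3 were higher, CHD4, HDAC1 (log2 0.70) and CHD3 (0.41), and 2 lower. Those shares, with CHD4 itself counted, were 20% and 13.3% beside 19.4% and 18.1% of all genes. CHD4 is the target of the hairpins, so its call follows from the design. GATAD2A, a scaffold between CHD4 and the deacetylase part, held 7389, 6130.2 and 5642 with shFLI1, 12879, 13997 and 12481 with shCHD4#1, 10084, 9759 and 9282 with shCHD4#2 and 10260.2 to 14069 in shScramble (log2 -0.83, SE 0.09, adjusted p = 9.30e-04). MTA1, another scaffold, held 2921, 2779 and 3026 against 3600.3 to 4566 with the hairpins (log2 -0.46, SE 0.07, adjusted p = 0.00593). Second-kind libraries alone gave 1 higher and 1 lower, and MTA1 was not called there (larger adjusted p = 0.0512).

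Of 24 tested of 32 neuronal genes 5 were higher and 2 lower, or 20.8% and 8.33% beside 19.4% and 18.1% of all genes. DCX held 1310.0, 1607 and 1136 normalised counts with shFLI1 against 191 to 489 (median 302) in the 6 CHD4 hairpin libraries and 331 to 503 in shScramble (log2 2.20, SE 0.14, adjusted p = 1.43e-05). DCX, doublecortin, binds microtubules of young neurons. SYN1 held 134, 81.5 and 76.3 normalised counts with shFLI1 against 246 to 465 (median 354) in the 6 CHD4 hairpin libraries and 354 to 411 in shScramble (log2 -1.85, SE 0.18, adjusted p = 1.54e-04). SYN1 is synapsin of synaptic vesicles. SYT1 held 282, 573 and 394 normalised counts with shFLI1 against 46.7 to 122 (median 101.3) in the 6 CHD4 hairpin libraries and 40.1 to 138 in shScramble (log2 2.24, SE 0.36, adjusted p = 0.00143). SYT1 is the calcium sensor of vesicle release, and MAP2 (log2 2.44) had the largest difference of the list. The number higher was 3 without any 1 of the shFLI1 libraries or shCHD4#2 replicate 2, and the number lower was 1 without shFLI1 replicate 2 or 3 or shCHD4#2 replicate 1 or 3.

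Of 19 tested of 33 striated muscle genes 5 were higher and 5 lower, 26.3% each beside 19.4% and 18.1% of all genes. MYL1 held 109.6, 220.0 and 192 normalised counts with shFLI1 against 0 to 3.97 (median 2.56) in the 6 CHD4 hairpin libraries and 0 to 4.22 in shScramble (log2 5.89, SE 0.49, adjusted p = 2.29e-05). MYL1 is a myosin light chain of fast muscle. ACTN2 held 460.1, 401 and 529.6 normalised counts with shFLI1 against 1852 to 3573 (median 2726) in the 6 CHD4 hairpin libraries and 1116 to 2312 in shScramble (log2 -2.50, SE 0.17, adjusted p = 5.80e-06). ACTN2 is the actinin of the Z-disc, and MYOM2 of the M-band was at 68.2, 65.9 and 47.5 against 226 to 589.6 with the hairpins (log2 -2.70, SE 0.19, adjusted p = 1.30e-05). The lower members included PAX7 (log2 -3.47), a factor of muscle stem cells. Without shFLI1 replicate 1 the number lower was 3, and 3 in second-kind libraries alone.

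Of 17 tested of 33 epithelial junction and cytolinker genes 2 were higher and 5 lower. Those shares were 11.8% and 29.4% beside 19.4% and 18.1% of all genes. CDH3 held 832, 967 and 924 normalised counts with shFLI1 against 102 to 153 (median 139) in the 6 CHD4 hairpin libraries and 152 to 280.4 in shScramble (log2 2.76, SE 0.14, adjusted p = 9.85e-07). CDH3 is P-cadherin. CLDN1 held 2085, 1973 and 1547 normalised counts with shFLI1 against 4656 to 6046 (median 5346) in the 6 CHD4 hairpin libraries and 5166 to 8015 in shScramble (log2 -1.55, SE 0.11, adjusted p = 8.08e-06). CLDN1 is a claudin of tight junctions, low with shFLI1 alone, whereas PPL and MISP (log2 -2.86) were the other large differences. TJP3 (1.20) was the other higher member, and 1 was higher without shFLI1 replicate 3 or shCHD4#1 replicate 2. The summed level of epithelial markers was 135 to 161 with shFLI1, 59.0 to 233 with the hairpins and 32.4 to 44.6 in shScramble. KRT14 had a highest value of 1.99 over the 9 libraries compared.

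Of 10 tested of 32 germline genes 2 were higher and 2 lower, 20% each and near the shares of all genes. TEX15, of meiotic recombination, held 1483, 1131 and 1250.4 against 2480.4 to 3181 with the hairpins (log2 -1.13, SE 0.10, adjusted p = 3.01e-05), and the cohesin STAG3 and the synaptonemal SYCP2 were not called in second-kind libraries alone (larger adjusted p = 0.103 and 0.0625). The number higher was 1 without shFLI1 replicate 1 or 3 or shCHD4#1 replicate 1 or 2. Of 13 mitochondrially encoded protein genes 1, MT-ND6, was lower, at 688, 642 and 1015 against 1139 to 1545 with the hairpins (log2 -0.81, SE 0.15, adjusted p = 0.00315). It is the member encoded on the light strand. Without shFLI1 replicate 3 there were 3 higher.

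Markers of other lineages gave single calls. PTPRC, the CD45 phosphatase of blood cells, held 276, 333 and 329 with shFLI1 against 24.2 to 54.0 with the hairpins and 28.7 to 53.8 in shScramble (log2 2.97, SE 0.23, adjusted p = 1.13e-05), with CD3E and LYZ at or near 0 in every library. The other blood marker tested, CD68, was not called (log2 -0.42). HAND2, a factor of sympathetic neurons, was higher (log2 1.54, SE 0.16, adjusted p = 6.80e-05). GATA3, another such factor, had 3 reads with shFLI1 against 144 with the hairpins, a ratio of 0.0491 with a 95% interval of 0.010 to 0.146.

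**Figure D5:**
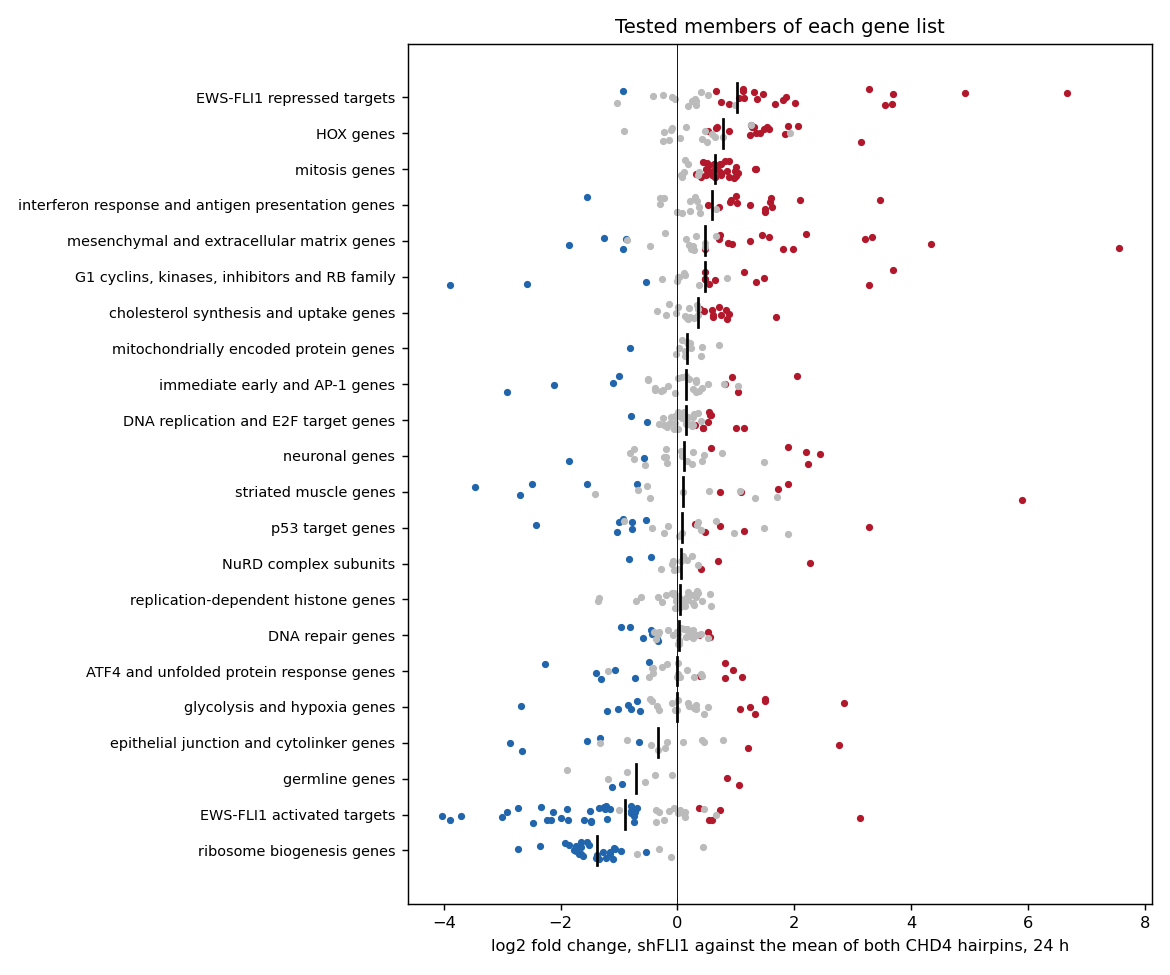
Each point is a tested member of a gene list, placed by its log2 fold change with shFLI1 against the mean of both CHD4 hairpins at 24 h, red or blue where it was called higher or lower against both hairpins and grey where it was not. The black bar is the list median, from -1.38 for ribosome biogenesis genes to 1.02 for EWS-FLI1 repressed targets.

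The same contrast at 48 h uses other libraries. There 4899 genes were higher and 5047 lower with shFLI1 than with both hairpins (23.3% and 24.0%). Of the genes higher at 24 h, 3100 (76.1%) were called higher and 66 (1.62%) lower at 48 h, and of the lower ones 2997 (78.8%) were lower and 24 (0.631%) higher. The shared genes were 63.3% of the higher and 59.4% of the lower genes at 48 h. A test of the change itself found 1975 genes with a more positive and 2439 with a more negative difference at 48 h (9.39% and 11.6%).

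Mitosis genes had opposite directions at the 2 times. At 48 h 1 of 38 was higher and 24 lower, at a median of -0.55, and all 38 had a more negative difference past the test. NEK2 went from 1.04 to -0.35 (difference -1.40, adjusted p = 6.76e-06), and at 48 h it was not called against both hairpins. Repair genes, of which 7 were lower at 24 h, were lower in 22 at 48 h, and histone genes in 27 of 34 after 0. Immediate early genes were higher in 16 of 29 after 4, with 20 more positive past the test.

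Other lists had the same direction at both times. Repressed targets were higher in 24 of 34 at 48 h, at a median of 2.06 after 1.02, with 18 more positive past the test, and matrix genes in 23 of 31, at 1.57 after 0.48. Ribosome biogenesis genes were lower in 28 of 30, at -1.84. HOX genes were higher in 16 of 33, after 17.

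HS3ST2, the lowest gene at 24 h, was not called at 48 h, where 1 library stood apart: its shFLI1 values were 2.36, 18.4 and 3066 against 37.9 to 217 with the hairpins. The change between times did not pass the test (adjusted p = 0.0572).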

How the data were processed

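Total RNA of the 28 cultures was sequenced from stranded libraries, per the labels. Per the submitters' processing notes, reads were handled on GRCh38 by HISAT2 2.1.0 and featureCounts 1.6.0, with DESeq2 1.34.0, SAMtools 1.7 and FastQC 0.11.7 also listed; the strand setting of the counting is not given in the sources used here. What the authors deposited is a table of 35488 genes whose values are a signal of counts divided by 1 factor per library. Every low value was a whole multiple of the value of 1 read in its library (100% within a tolerance of 0.02), so the reads were recovered. Gene types and positions came from GENCODE 29 for 34232 genes and promoters from RefSeq.

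Values were taken as log2(value + 1), and the 21025 genes whose mean over 28 libraries reached 10 were fitted with limma 3.58.1 (trended variance, R 4.3.3) over the 9 libraries in 3 groups. Genes with a two-sided Benjamini-Hochberg adjusted p below 0.05 against each hairpin, with 1 sign, were called. The log2 scale with a pseudocount of 1 understates changes of low genes. Change between times was tested in 1 fit over 24 and 48 h. edgeR 4.0.16 and DESeq2 1.42.0 on recovered reads, other filters, pseudocounts and scalings, a replicate block, a term for library kind and each library left out were alternatives. Replicates of a group differed beyond sampling noise in all 9 pairs tested (chi-square per gene 19.6 to 69.3).

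The leading genes named had the largest smaller log2 difference to the hairpins, a mean of at least 100 in the higher group, no overlap and, for the largest differences, a log2 difference of at least 1 to replicate 3 of the hairpins. From each list, the called members with the lowest adjusted p were added, 3 at most. The members and lists were chosen with earlier results of these data known. List members given by a log2 difference alone were, CEBPB apart, chosen after their values were seen, as were UTP20, MRTO4 and the E-box. A few genes are not reported here.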

Additional observations from a re-analysis of the deposited data

Results flagged for a closer look

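In 5 of 106 genes 1 of the 5 shScramble libraries at 24 h stood apart from the other 4, and chance gives about 1 in 20. The values were 1.01 normalised counts for DKK1, 29.5 for LINC01234, 556 for HOXC4, 28.7 for PTPRC and 17.8 for LUM. The DKK1 value is that of 1 read, so the rate of 1 in 20 need not hold for it.

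For 42 of the 106 named genes the difference between shFLI1 and the mean of the CHD4 hairpins itself differed between 48 and 24 h by the test of that change, and 32 of them had a larger difference of the same sign at 48 h. The values, given for 41 of the 42, are log2 differences at 48 h minus those at 24 h. Among matrix genes and genes of the cell surface or shape they were 1.35 for COL3A1, 1.57 for COL5A2, 1.58 for PDGFRB, 1.86 for RND3, 0.81 for FRMD6, 0.77 for CDH3, -1.97 for CDH10, -0.95 for STEAP1 and -1.26 for KREMEN2. The inhibitor of Wnt signalling DKK1 had 4.42, though its change was not called by edgeR on recovered reads (adjusted p = 1).

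Genes of division and genome upkeep all had more negative values except CCND2 (1.45): PTTG1 -0.85, NEK2 -1.40, NDC80 -1.43, CCNE2 -0.73, TK1 -0.87, RFC3 -0.94, ATR -0.33 and DDB2 -1.30. Ribosome biogenesis genes had -0.30 for HEATR1, -0.53 for DKC1 and -0.70 for RRS1. Genes of metabolism and signalling had 0.93 for STARD4, 0.57 for SREBF2, -1.21 for SLC7A5, -1.22 for PFKP, 4.04 for HSD17B2, 0.67 for SPRED2, 0.59 for IFI44, -0.64 for UGT3A2 and -1.12 for MT-ND6.

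Neuronal and germline genes and regulators had 1.69 for DCX, -1.30 for SYN1, 2.29 for SHISA9, 0.82 for HAP1, -1.62 for TEX15, -0.53 for BCL11B and -0.45 for GATAD2A. The non-coding genes had 0.62 for AC092620.1, -2.04 for LINC00624 and -2.09 for AL035446.2.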

How the results depend on the processing

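The number of genes called against both hairpins was 7875, lay between 5681 and 8880 over 13 alternatives and between 6187 and 8166 with each library left out, and 0 called genes had the opposite direction in any of these fits. With each library left out, counts were 9285 to 12105 against the mean of the hairpins, 8524 to 11276 against shCHD4#1, 8257 to 10556 against shCHD4#2 and 3151 to 5121 for the change between times. In second-kind libraries alone 63.7% of the calls were made again, and with library kind as a term 81.2%. Median centring moved the median of all genes by -0.10 and gave 3362 higher and 4604 lower genes. The position of shScramble, 0.10, was 0.0279 in second-kind libraries alone and 0.171 with shScramble replicate 2 alone.

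Of 106 named genes, AC104596.1, MTA1, SYCP2 and STAG3 lost their call in second-kind libraries alone, and STAG3 also with library kind and shScramble in the fit (adjusted p = 0.0545). List counts moved by over 1.5 times in 57 cases of alternatives and 41 of left-out libraries, and those of 1 library are named beside the lists. Of the 42 changes between times, 16 were lost in some fit without 1 library. Between the hairpins, 2237 genes differed, 1245 in a fit over their 6 libraries and 6946 with the replicate block. Same-numbered libraries of the hairpins deviated together, and the block takes in the library kind as well. Replicate numbers did not pair shFLI1 with the hairpins (correlations of deviations -0.05 to 0.10 between same-numbered libraries), and the fit with the replicate block gave 8880 genes. The 3 libraries a group limit the precision of low genes, and a single cell line and 1 FLI1 hairpin limit what the groups stand for.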
